A study of Mus musculus with 46 samples.

Results

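The 4 genes described here encode cytosolic chaperones and co-chaperones: Dnaja1, Dnajb5, Cct5 and Bag1. They are the rows of the deposited count table whose Ensembl identifiers map to these names in GENCODE M21 and that lie in 1 of 2 windows of GRCm38, on chromosome 4 (5.64 to 55.53 Mb) and chromosome 15 (9.07 to 37.01 Mb). All 4 averaged more than the 5 CPM (counts scaled to an equal library total) required of a member and all 4 were tested, out of 55416 rows in the table and 8986 rows tested. The windows hold 989 rows, of which 283 were tested, 240 of them protein-coding genes. Of 5 rows outside the windows named for genes that are abundant in cultured cells, Hspa8, Hsp90ab1 and Eef1a1 averaged 0.0297, 0.0145 and 0.0146 CPM over the 46 libraries, Actb 8.24 CPM and Gapdh 430.9 CPM, so names outside the windows were not relied on. The HSP70 and HSP90 genes themselves are therefore not described.

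Chaperones bind unfolded or newly made proteins and help them reach or keep their folded state. HSP70 works in cycles of ATP hydrolysis, in which J-domain proteins such as DNAJA1 and DNAJB5 deliver clients and stimulate hydrolysis, and nucleotide exchange factors such as BAG1 reset the cycle and can lead clients toward the proteasome. The ring-shaped chaperonin TRiC, of which CCT5 is the epsilon subunit, folds actin and tubulin in a closed chamber.

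RNA-seq was done on mouse embryonic fibroblasts (MEFs) of 2 genotypes, each treated for 7 h. The groups were ATF4 KO cells with 600 nM borrelidin (n = 12), ATF4 KO cells with the vehicle, 1% DMSO by volume (n = 11), wild type cells with 600 nM borrelidin (n = 12) and wild type cells with vehicle (n = 11). Borrelidin inhibits threonyl-tRNA synthetase, and ATF4 is the transcription factor whose translation rises when uncharged tRNA accumulates. The wild type MEFs were purchased and the ATF4 KO line was made by the authors by CRISPR editing of Atf4, so the spread among libraries, which the labels call biological replicates, is not a spread among independent knockouts. In a bulk sample, fewer cells of a type and less RNA per cell cannot be told apart. The row of Atf4 lies outside the windows, and the knockout was not checked here.

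Assigned counts per library ranged over 2047362 to 3467765 (median 2869299). In these libraries, 9 genes abundant in fibroblasts or most cells averaged 40.1 to 2227.9 CPM. Of 11 genes of other cell types, 8 averaged under 5.5 CPM, 5 of these under 1 CPM, and the exceptions were Cd72 (92.3 CPM), Calb1 (14.6 CPM) and Pax5 (6.88 CPM). Pax5 averaged 17.2 CPM in ATF4 KO cells with borrelidin and 9.49 CPM in ATF4 KO cells with vehicle, against 0.132 CPM in wild type cells with borrelidin and 0.339 CPM in wild type cells with vehicle. The summed level of the 11 genes was 110.2 to 182.4 CPM in ATF4 KO cells with borrelidin and 88.6 to 134.3 CPM with vehicle, and 82.4 to 132.5 CPM in wild type cells with borrelidin and 72.3 to 123.8 CPM with vehicle. Their part in the results below was not tested.

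The libraries fall into a pair of sets. The first holds 14 libraries, which are wild type vehicle replicates 1 to 8 and replicates 1 to 3 of both ATF4 KO groups, and the second holds the other 32. The sets were found from expression, as a gap on the second principal component (24.1% of the variance), and no label names what they are. The authors describe the second component of their own analysis as parting samples by drug treatment, more clearly in wild type cells. Here wild type libraries with vehicle scored -32.5 to -25.4 in the first set and 1.4 to 10.0 in the second, and those with borrelidin 8.0 to 16.4. No wild type library with borrelidin lies in the first set, whereas 8 of the 11 wild type libraries with vehicle do, so the pooled wild type comparison mixes borrelidin with the library set. The other 3 wild type libraries with vehicle lie in the second set and allow a comparison within it. The main results are given over all libraries and with the library set as a term of the fit or in the second set alone.

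Dnaja1 lies on the + strand of chromosome 4 (40722150 to 40737149), Bag1 on the - strand of the same chromosome (40936398 to 40948294) and Dnajb5 on its + strand (42949814 to 42959425). Cct5 lies on the - strand of chromosome 15 (31590800 to 31601804). The last bases of Dnaja1 overlap those of Smu1, a splicing gene on the opposite strand (480.6 CPM), and since the strand setting of the counting is not given in the sources used here, reads in the overlap cannot be told apart. A processed pseudogene, Dnaja1-ps, is annotated on chromosome 5.

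Short sequences of the core promoters are shown because heat shock factor, the activator of many chaperone genes, binds inverted repeats of GAA. The 9 RefSeq promoter windows of the 4 genes (GRCm38.p6, 250 bases before to 50 after each start) were searched on both strands for GAANNTTC and TTCNNGAA, and 1 match of each was found. The match in each line is in capitals, with 10 bases on either side, written 5′ to 3′ on the strand of the gene.
Dnaja1, chr4:40722334-40722361, + strand: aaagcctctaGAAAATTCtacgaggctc
Cct5, chr15:31601863-31601890, - strand: cagcggccgaTTCCAGAAgctactctgc
The Dnaja1 match begins 124 bases before the start site of its window and the Cct5 match 34 bases before. GAANNTTC occurs in 7.86% and TTCNNGAA in 8.52% of the 32851 promoter windows of the genome. TGATGNAA, a core of the amino acid response elements that ATF4 binds with C/EBP partners, occurs in 3.97% of all windows and in none of the 9. CCAAT, which occurs in 37.4% of all windows, was found for Dnaja1 and Dnajb5. A match is a description of letters, not a site in use.

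Per kb of summed exon length, Cct5 was the highest of the 4 at 692.2 ± 237.5 CPM per kb (SD, n = 46), then Bag1 at 413.1 ± 109.2, Dnaja1 at 203.9 ± 40.6 and Dnajb5 at 9.1 ± 2.43. The ranges over libraries overlapped between Cct5 (345.9 to 1187.8) and Bag1 (226.8 to 599.5) and between Bag1 and Dnaja1 (142.6 to 279.8), but this order per kb held within each of the 46 libraries. The length counts all annotated exons (8629 bases for Dnaja1, 2766 for Cct5 and 1349 for Bag1), not those of the transcript expressed. Undivided, Cct5 averaged 1914.6 CPM, Dnaja1 1759.7, Bag1 557.2 and Dnajb5 54.0, so the place of Dnaja1 below Bag1 rests on the length used. Behind these levels stood 56 to 251 counts per library for Dnajb5, against 973 or more for the other 3 genes, so Dnajb5 carries the largest counting error of the 4.

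**Figure D1:**
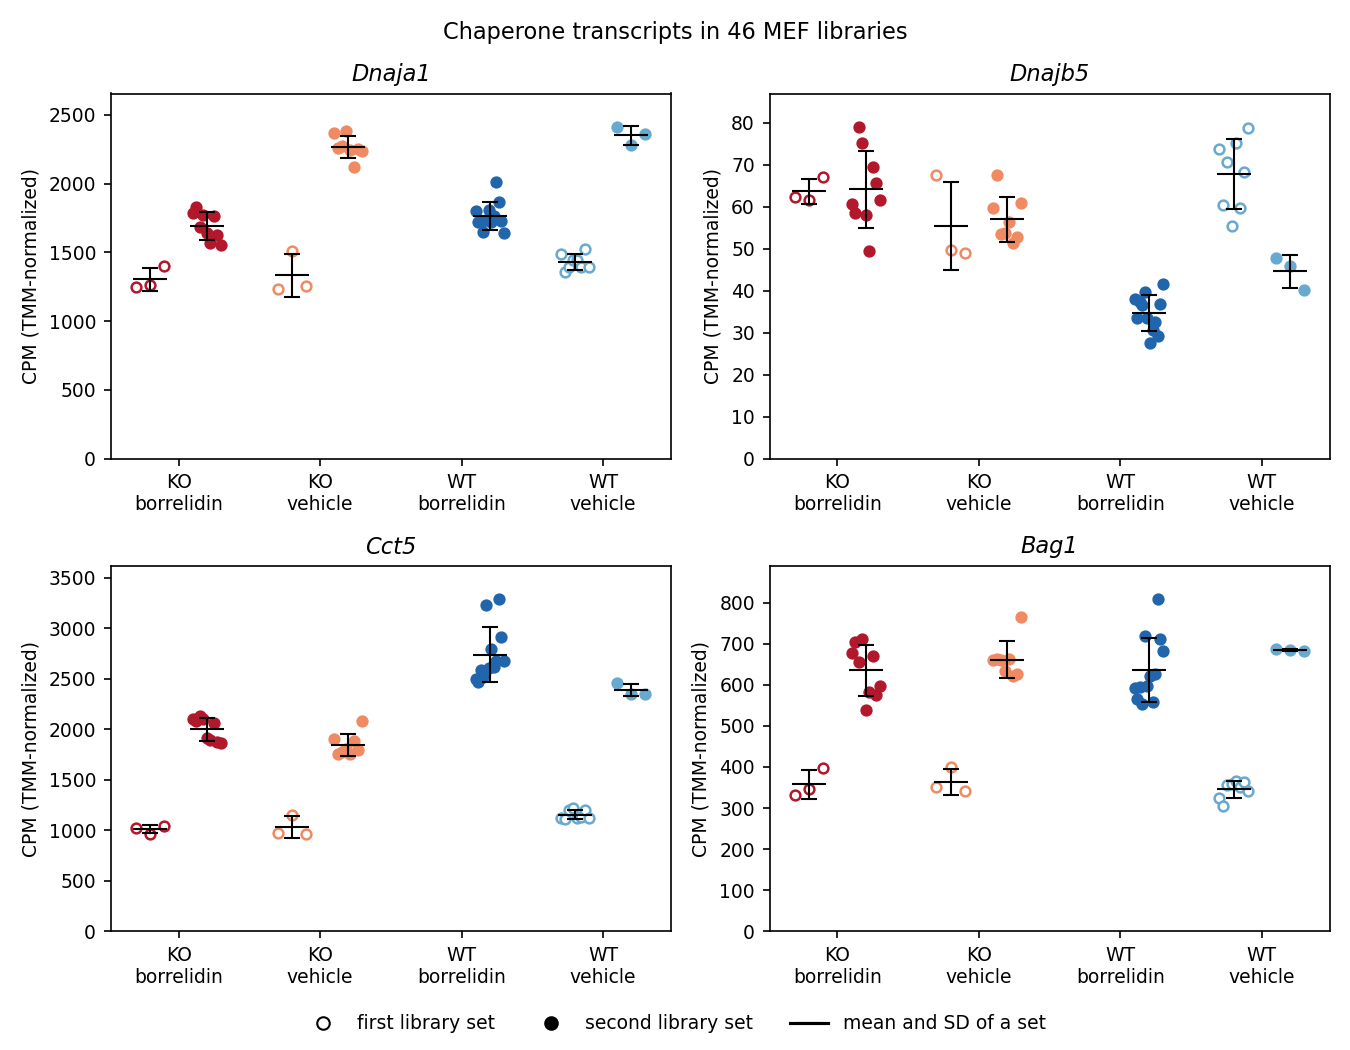
TMM-normalized CPM of the 4 genes (vertical axes, from 0) in each of 46 libraries by group (KO, ATF4 KO; WT, wild type), with open points for the first library set, filled points for the second, and bars for the mean and SD of a set. Dnaja1, Cct5 and Bag1 are lower in the first set in each group that has both sets, and Dnajb5 is low in wild type cells with borrelidin (27.5 to 41.6 CPM).

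Dnajb5, a class B J-domain protein, was higher in ATF4 KO than in wild type cells under borrelidin. Its level was 49.5 to 79.1 CPM (median 62.0) in ATF4 KO cells with borrelidin and 49.1 to 67.6 CPM (median 53.8) in ATF4 KO cells with vehicle. In wild type cells it was 27.5 to 41.6 CPM (median 35.1) with borrelidin and 40.3 to 78.9 CPM (median 60.4) with vehicle. Every ATF4 KO library with borrelidin was above every wild type library with borrelidin, and 11 of 12 wild type libraries with borrelidin were below every wild type library with vehicle. Groups that did not overlap, in either direction, were found for 11.1% of all tested rows between ATF4 KO and wild type cells under borrelidin.

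With borrelidin, Dnajb5 was higher in ATF4 KO than in wild type cells by 0.88 ± 0.09 on the log2 scale (SE; adjusted p = 2e-11, edgeR quasi-likelihood test with Benjamini-Hochberg adjustment). Over all libraries it passed a threshold of 1e-10, as 5.49% of all rows did. With the set as a term Dnajb5 and Cct5 passed that threshold in this comparison, as 9.21% of all rows did. With the compared groups fitted alone Dnajb5 was at 0.90 (adjusted p = 1.3e-10, edgeR). The difference was 0.84 with the library set as a term (adjusted p = 7.6e-12, edgeR) and 0.88 in the second set alone (adjusted p = 4.4e-12, edgeR). Within the second set, 9 ATF4 KO libraries averaged 64.2 ± 9.21 CPM and 12 wild type libraries 34.8 ± 4.3 CPM, with no overlap, as for 14.7% of all rows in either direction (two-sided exact permutation p = 3.4e-06, the smallest that these numbers allow).

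The borrelidin response of Dnajb5 in wild type cells was -0.82 ± 0.09 over all libraries (adjusted p = 5.4e-10, edgeR), and -0.70 with the set as a term (adjusted p = 9.3e-07, edgeR). That term fits 1 set difference to all groups. For Dnajb5 the ratio of the second to the first set was 0.658 in wild type cells with vehicle, and 1.01 and 1.03 in the ATF4 KO groups. The term therefore does not remove the set difference from the wild type values. In the second set, 12 wild type libraries with borrelidin averaged 34.8 ± 4.3 CPM and 3 with vehicle 44.6 ± 3.83 CPM. The wild type response there was -0.36 (95% interval -0.61 to -0.11, adjusted p = 0.032, edgeR). This smaller response lost its call when vehicle replicate 9 (adjusted p = 0.17) or 10 (adjusted p = 0.12, edgeR) was also left out. In ATF4 KO cells the response was 0.18 (95% interval -0.00 to 0.36, adjusted p = 0.13, edgeR) over all libraries, 0.19 with the set as a term (adjusted p = 0.07) and 0.17 in the second set (adjusted p = 0.12), and did not pass. The difference of the responses, wild type minus ATF4 KO, was -1.01 ± 0.13 over all libraries (adjusted p = 5.4e-08, edgeR), -0.88 with the set as a term (adjusted p = 1.8e-06) and -0.53 in the second set (adjusted p = 0.017). The difference in the second set did not pass without vehicle replicate 9 (adjusted p = 0.08) or 10 (adjusted p = 0.057, edgeR).

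Under vehicle the direction for Dnajb5 differed between the sets. In the second set 8 ATF4 KO libraries averaged 57.0 ± 5.39 CPM and 3 wild type libraries 44.6 ± 3.83 CPM, all ATF4 KO libraries being higher, where 22.5% of all rows did not overlap in either direction (0.35 in mean log2 CPM, two-sided exact permutation p = 0.0061, the smallest possible). In the first set 3 ATF4 KO libraries averaged 55.5 ± 10.5 CPM and 8 wild type libraries 67.8 ± 8.44 CPM (-0.29, two-sided exact permutation p = 0.067). The pooled value was -0.12 (adjusted p = 0.31, edgeR) and that with the set as a term -0.04 (adjusted p = 0.77). The fit to the second set gave 0.35 (adjusted p = 0.044, edgeR), a call that was lost without vehicle replicate 9 (adjusted p = 0.062), 10 (adjusted p = 0.094) or 11 (adjusted p = 0.19).

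**Figure D2:**
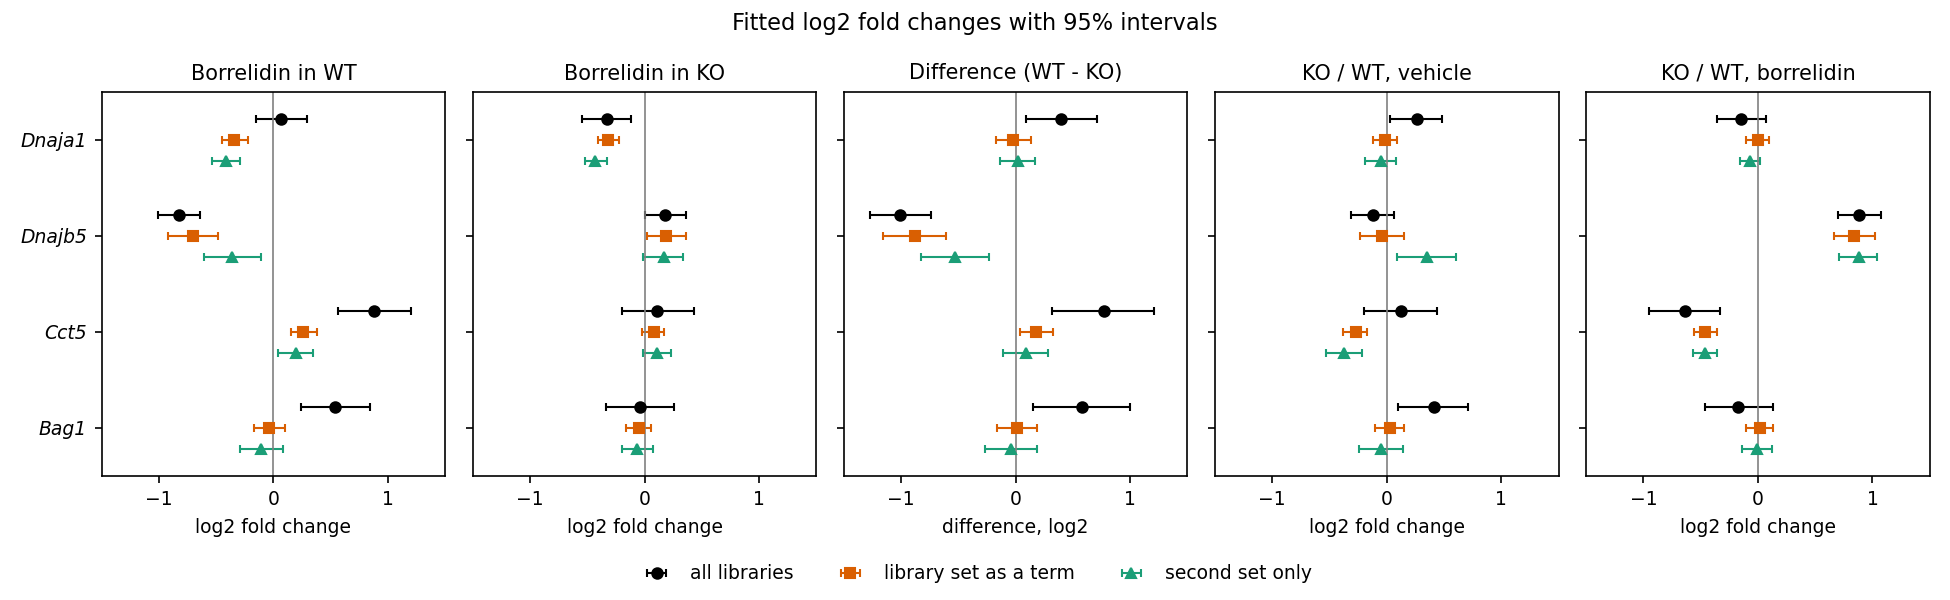
Log2 fold changes (horizontal axes) of the 4 genes in 5 comparisons with 95% intervals, fitted over all libraries (circles), with the library set as a term (squares) or in the second set alone (triangles); the middle panel is the wild type response minus the ATF4 KO response. Dnajb5 between genotypes under borrelidin stays at 0.84 to 0.88, whereas Bag1 with borrelidin in wild type cells is at 0.54, -0.04 and -0.11 in the 3 fits.

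Dnaja1, a class A J-domain protein of the cytosol, was lower with borrelidin in the second library set in both genotypes. In ATF4 KO cells of that set, it was 1555.4 to 1829.8 CPM (median 1686.7) in 9 libraries with borrelidin and 2120.1 to 2382.4 CPM (median 2253.6) in 8 libraries with vehicle. In wild type cells of that set, it was 1643.5 to 2015.2 CPM (median 1730.2) in 12 libraries with borrelidin and 2277.9, 2363.0 and 2414.4 CPM in 3 libraries with vehicle. The groups did not overlap in either genotype, as for 14.3% of all rows in ATF4 KO cells and 11.1% in wild type cells of that set, in either direction. The difference in mean log2 CPM was -0.42 in each genotype, with two-sided exact permutation p = 4.1e-05 in ATF4 KO cells and p = 0.0022 in wild type cells, each the smallest possible.

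Over all libraries the values of Dnaja1 overlapped. They were 1247.8 to 1829.8 CPM (median 1632.1) with borrelidin and 1230.6 to 2382.4 CPM (median 2246.7) with vehicle in ATF4 KO cells. In wild type cells they were 1643.5 to 2015.2 CPM with borrelidin and 1358.4 to 2414.4 CPM with vehicle, whose median was 1447.0 CPM and whose 11 libraries include 8 of the first set. The pooled response was -0.33 ± 0.11 in ATF4 KO cells (adjusted p = 0.015, edgeR) and 0.07 ± 0.11 in wild type cells (adjusted p = 0.6, edgeR). With the library set as a term it was -0.32 (adjusted p = 2.7e-07) and -0.34 (adjusted p = 4.3e-06, edgeR). The 2 responses then differed by -0.02 (95% interval -0.17 to 0.13, adjusted p = 0.89, edgeR), while the pooled fit gave 0.40 (adjusted p = 0.038). That term fits 1 set difference to all groups. For Dnaja1 the ratio of the second to the first set was 1.3 in ATF4 KO cells with borrelidin, 1.7 in ATF4 KO cells with vehicle and 1.64 in wild type cells with vehicle. In the second set alone the responses differed by 0.02 (95% interval -0.14 to 0.17, adjusted p = 0.95, edgeR).

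The lower level with borrelidin was not seen in the first set, where 3 ATF4 KO libraries with borrelidin had 1247.8, 1266.6 and 1398.1 CPM and 3 with vehicle 1230.6, 1258.7 and 1510.3 CPM. The groups overlapped (-0.03 in mean log2 CPM, two-sided exact permutation p = 0.9, where 0.1 is the smallest possible). The response in the first set was higher than that in the second by 0.42 ± 0.09 (adjusted p = 0.0074, edgeR interaction term over ATF4 KO libraries), and of the 4 genes Dnaja1 alone passed this test, which 5.98% of all rows passed. The others were at 0.06, -0.12 and 0.07 for Dnajb5, Cct5 and Bag1 (adjusted p = 0.89, 0.54 and 0.81). Between genotypes Dnaja1 did not pass under vehicle (0.26, adjusted p = 0.065) or borrelidin (-0.15, adjusted p = 0.26, edgeR), and with the set as a term the values were -0.02 (95% interval -0.12 to 0.09) and 0.00 (95% interval -0.10 to 0.10).

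Cct5, the TRiC subunit, had less transcript in borrelidin-treated ATF4 KO cells than in wild type cells given the same drug. It was 962.4 to 2128.6 CPM (median 1901.7) in ATF4 KO cells and 2467.1 to 3285.4 CPM (median 2642.9) in wild type cells with borrelidin, and the groups did not overlap, as for 11.1% of all rows in either direction. The difference was -0.64 ± 0.15 over all libraries (adjusted p = 0.00048, edgeR) and -0.46 ± 0.05 both with the set as a term (adjusted p = 5.9e-12) and in the second set alone (adjusted p = 9.6e-10). In that set, 9 ATF4 KO libraries averaged 1999.7 ± 113.3 CPM, all below the 12 wild type libraries, where 14.7% of all rows did not overlap (two-sided exact permutation p = 3.4e-06, the smallest possible).

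Cct5 was also lower in ATF4 KO cells under vehicle within the second set, at 1749.2 to 2081.0 CPM in 8 ATF4 KO libraries and 2351.2, 2351.9 and 2458.7 CPM in 3 wild type libraries. These groups did not overlap, as for 22.5% of all rows in either direction (-0.38 in mean log2 CPM, two-sided exact permutation p = 0.0061, the smallest possible). In the first set 3 ATF4 KO libraries averaged 1028.9 ± 108.8 CPM and 8 wild type libraries 1152.2 ± 45.3 CPM (-0.17, two-sided exact permutation p = 0.036, unadjusted). The groups overlapped there, and the fit to the first set alone gave no call (-0.18, adjusted p = 0.071, edgeR). With the set as a term the difference under vehicle was -0.27 (adjusted p = 2.7e-05, edgeR), while the pooled value was 0.12 (adjusted p = 0.57).

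The borrelidin response of Cct5 in wild type cells depended on the libraries used. All 12 libraries with borrelidin, at 2467.1 to 3285.4 CPM, were above the 11 with vehicle, at 1112.0 to 2458.7 CPM (median 1200.2), and non-overlap was found for 6.25% of all rows. The pooled response was 0.88 ± 0.16 (adjusted p = 9.4e-06, edgeR), that with the set as a term 0.26 ± 0.06 (adjusted p = 0.00032) and that in the second set 0.20 ± 0.08 (adjusted p = 0.069). In ATF4 KO cells the values were 0.11 (adjusted p = 0.63) pooled and 0.08 (adjusted p = 0.19, edgeR) with the set as a term, and 0.11 in the second set (adjusted p = 0.12). A fit to the ATF4 KO libraries of the second set alone, added after seeing the data, gave 0.12 (adjusted p = 0.043, edgeR), where 46.7% of all rows passed. The difference of the responses was 0.77 pooled (adjusted p = 0.0075) but 0.18 with the set as a term (95% interval 0.04 to 0.33, adjusted p = 0.071, edgeR) and 0.09 in the second set (adjusted p = 0.65).

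Bag1, the nucleotide exchange factor, gave no call within the library sets. It was 331.1 to 712.9 CPM (median 590.4) in ATF4 KO cells with borrelidin and 341.6 to 765.2 CPM (median 633.9) with vehicle, and 553.3 to 808.8 CPM (median 609.4) in wild type cells with borrelidin and 305.9 to 686.7 CPM (median 359.3) with vehicle. All of these ranges overlapped. The pooled fit called Bag1 higher with borrelidin in wild type cells (0.54 ± 0.15, adjusted p = 0.002, edgeR) and higher in ATF4 KO than in wild type cells under vehicle (0.41 ± 0.15, adjusted p = 0.032). With the set as a term these were -0.04 (95% interval -0.17 to 0.10, adjusted p = 0.72) and 0.03 (95% interval -0.10 to 0.15, adjusted p = 0.77, edgeR). In the second set, 12 wild type libraries with borrelidin averaged 636.2 ± 78.6 CPM and 3 with vehicle 684.3 ± 2.61 CPM (two-sided exact permutation p = 0.28). In ATF4 KO cells the response was -0.04 over all libraries (adjusted p = 0.89), -0.05 with the set as a term (adjusted p = 0.5) and -0.07 in the second set (adjusted p = 0.48, edgeR). Between genotypes under borrelidin the difference was -0.17 (adjusted p = 0.34), and 0.02 with the set as a term (adjusted p = 0.84, edgeR). The exact tests within sets numbered 24 in all, over the 4 genes and 6 combinations of comparison and set, and their p-values are unadjusted.

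Counted over the 4 genes, borrelidin in wild type cells gave 3 calls at an adjusted p under 0.05 in the pooled fit (Cct5 and Bag1 higher, Dnajb5 lower), where 59.4% of all tested rows passed, and 3 with the set as a term (Cct5 higher, Dnaja1 and Dnajb5 lower), where 29.8% passed. In ATF4 KO cells, 1 gene passed in both fits, Dnaja1, against 30.3% and 43.1% of rows. All 4 genes passed the pooled test of the difference of the responses, against 33.6% of rows, and Dnajb5 alone did with the set as a term, against 20.4%. Between genotypes under vehicle, Bag1 passed in the pooled fit and Cct5 with the set as a term, against 35.3% and 35.1%, and under borrelidin Dnajb5 and Cct5 passed in both, against 49.8% and 54.7%. Calls in the second set alone were Dnaja1 and Dnajb5 in wild type cells (18.2% of rows), Dnaja1 in ATF4 KO cells (41.1%), Dnajb5 for the difference (9.68%), and Dnajb5 and Cct5 between genotypes under vehicle (20.6%) and under borrelidin (53.0%). A model of ATF4 activity, coded as high in wild type cells with borrelidin and fitted with genotype, called Dnajb5 (-0.82, adjusted p = 2.1e-09), Cct5 (0.88, adjusted p = 1.2e-05) and Bag1 (0.54, adjusted p = 0.0021, edgeR) and not Dnaja1 (0.07, adjusted p = 0.63), where 57.5% of rows passed. With this coding the coefficient is the borrelidin response of wild type cells, so these values repeat that comparison and do not test ATF4 separately. The ATF4 activity model with the set as a term gave -0.34 for Dnaja1 (adjusted p = 0.00084), -0.70 for Dnajb5 (adjusted p = 5.4e-06), 0.26 for Cct5 (adjusted p = 0.0011) and -0.04 for Bag1 (adjusted p = 0.75, edgeR), where 23.7% of all rows passed. Of the 4 genes, in the second set alone Dnaja1 passed (-0.41, adjusted p = 0.012), and Dnajb5 (-0.36, adjusted p = 0.066), Cct5 (0.20, adjusted p = 0.14) and Bag1 (-0.10, adjusted p = 0.56, edgeR) did not, where 10.5% of all rows passed. The borrelidin response of Dnaja1 in that set was -0.41 in wild type cells and -0.43 in ATF4 KO cells.

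The difference between the library sets was itself large for 3 of the 4 genes, and is given as a description with no test. The second set was higher than the first by a ratio of 1.98 in ATF4 KO cells with borrelidin, 1.79 in ATF4 KO cells with vehicle and 2.07 in wild type cells with vehicle for Cct5. For Bag1 the ratios were 1.77, 1.82 and 1.98, and for Dnaja1 1.3, 1.7 and 1.64, and the sets did not overlap for these genes in any of the 3 groups. Dnajb5 had ratios of 1.01 and 1.03 in the ATF4 KO groups, where the sets overlapped, and 0.658 in wild type cells with vehicle, where they did not. Over the 240 protein-coding genes of the windows, the median of the first minus the second set was -0.26, -0.31 and -0.29 in the same order of groups (mean log2 CPM). Genes with shorter exons tended to be lower in the first set, with a correlation across genes of 0.51, 0.38 and 0.45 between this difference and log2 exon length. Cct5 and Bag1, of 2766 and 1349 exon bases, are the shortest of the 4, and over the 3 groups 2.92% to 7.5% of the genes lay below Cct5 and 4.17% to 10.8% below Bag1. For Dnaja1, of 8629 bases, that share was 10.0% to 39.2%.

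**Figure D3:**
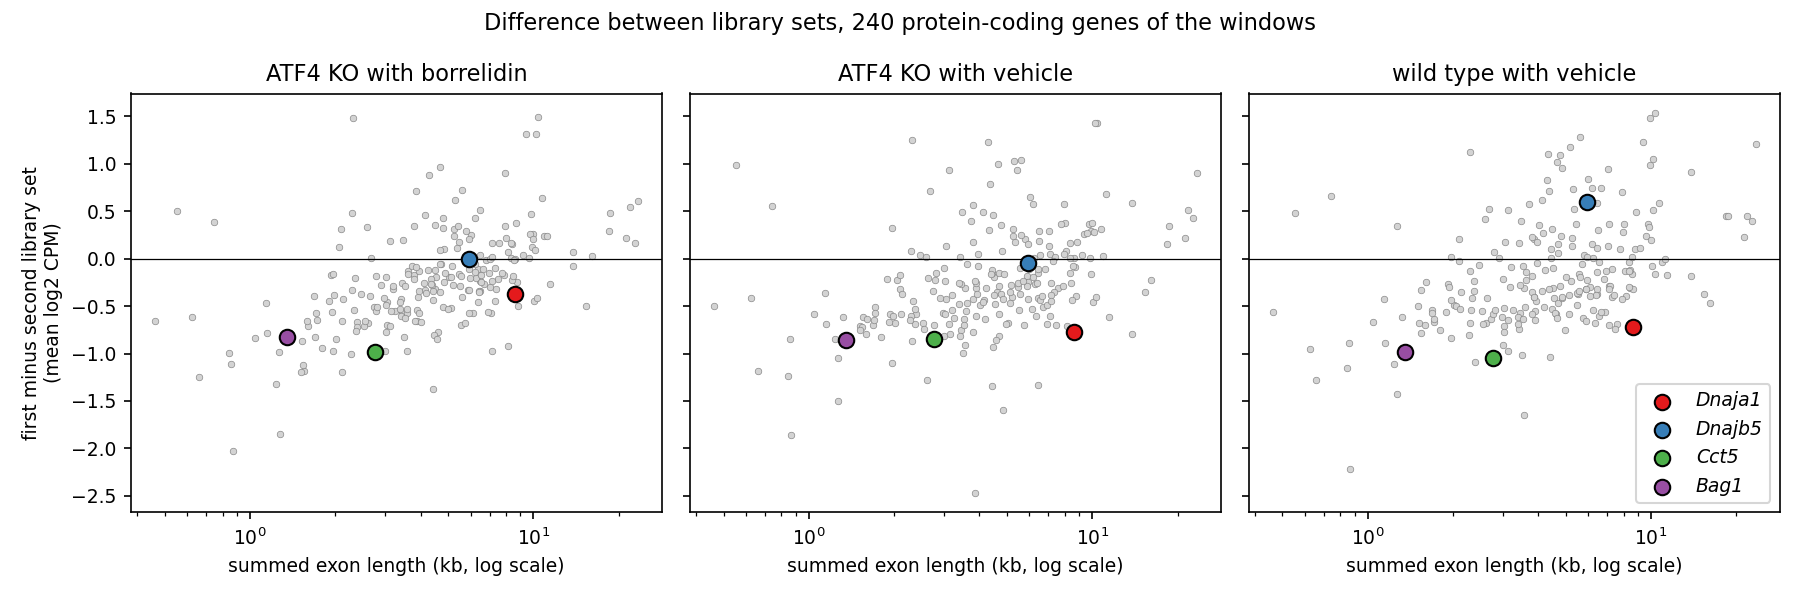
Mean log2 CPM of the first minus the second library set (vertical axes) against summed exon length (horizontal log axes, kb) for 240 tested protein-coding genes of the windows, in the 3 groups with libraries of both sets; coloured points are the 4 genes. Cct5 lies at -0.99, -0.84 and -1.05 and Bag1 at -0.82, -0.86 and -0.99, from left to right, and Dnajb5 is above 0 only in wild type cells with vehicle (0.59).

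Over the 46 libraries, log2 CPM of Cct5 and Bag1 went together (r = 0.89), and after the mean of each group and set was removed r was still 0.82. Dnaja1 followed Bag1 (r = 0.80, then 0.47), whereas Dnajb5 ran opposite to Cct5 (r = -0.69) and was unrelated to it within groups and sets (r = 0.01). These libraries share depth and set, and the correlations are descriptions. The window genes most like each member were Ube2r2, Melk and Nudt2 for Dnaja1 (r = 0.89, 0.88 and 0.88), Npr2, Msmp and Reck for Dnajb5 (0.73, 0.73 and 0.72), Anp32b, Tomm5 and Stoml2 for Cct5 (0.97, 0.96 and 0.95) and Clta, Ndufb6 and Smu1 for Bag1 (0.97, 0.96 and 0.95). Within groups and sets Stoml2 stayed at 0.86 with Cct5 and Clta at 0.84 with Bag1, while Reck was at -0.02 with Dnajb5.

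Nearest neighbours did not share the members' values throughout. Chmp5, an ESCRT subunit gene that begins 113 bases beyond Bag1 on the opposite strand, went with it (r = 0.89). Fam173b, 48 bases beyond Cct5 on the opposite strand, did not follow it (r = -0.30), nor did Phf24, 5062 bases before Dnajb5 (r = 0.08). The other neighbours had r of 0.17 (Aptx) and 0.42 (B4galt1) with Dnaja1, -0.42 (1700022I11Rik) with Dnajb5, 0.39 (March6) with Cct5 and 0.38 (B4galt1) with Bag1.

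Of 137 genes in 8 lists of chaperones and their partners, 14 were tested in the windows, the 4 members among them. None of 9 HSP70 and HSP110 genes, 16 HSP90 genes and co-chaperones, or 9 small heat shock proteins and heat shock factors lies there. The J-domain list had 3 of 28 tested, of which Dnajc21, a factor of ribosome biogenesis, was higher with borrelidin in both genotypes, by 0.73 in ATF4 KO cells (adjusted p = 5.4e-10) and 0.77 in wild type cells (adjusted p = 4.5e-11, edgeR). With the set as a term it was higher by 0.71 (adjusted p = 2.8e-17) and 0.49 (adjusted p = 4.7e-09), and in the second set by 0.74 (adjusted p = 9.7e-14) and 0.56 (adjusted p = 4.3e-07, edgeR). By the fit with the set as a term, the 3 J-domain genes gave 1 higher and 2 lower calls in wild type cells and 1 of each in ATF4 KO cells, with medians of -0.34 and 0.19 beside medians of all tested rows of -0.01 and -0.02. Of all rows, 14% were called higher and 15.8% lower in wild type cells by that fit, and 20.6% and 22.5% in ATF4 KO cells.

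The list of ER and mitochondrial chaperones had 2 of 30 tested. Stoml2, a mitochondrial scaffold protein, did not pass with the set as a term, at 0.11 in ATF4 KO cells (adjusted p = 0.12) and 0.15 in wild type cells (adjusted p = 0.1, edgeR). Of 13 genes that act with chaperones in the disposal of clients, 7 were tested. With the set as a term, borrelidin gave 4 higher and 3 lower calls in ATF4 KO cells (median 0.15) and 2 of each in wild type cells (median -0.09). By that fit 43.1% of all tested rows were called in ATF4 KO cells and 29.8% in wild type cells, in either direction. Among the protein-coding genes of the windows the shares were 56.2% and 39.6%. Vcp, the ATPase that extracts ubiquitinated proteins, was lower by -0.30 in ATF4 KO cells (adjusted p = 6.6e-08) and -0.18 in wild type cells (adjusted p = 0.0045), and March6, a ubiquitin ligase of the ER, was higher by 0.25 (adjusted p = 0.0013) and 0.44 (adjusted p = 9.6e-06, edgeR).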

How the data were processed

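RNA-seq of 46 MEF libraries was analysed from the deposited raw counts per Ensembl identifier. The authors aligned reads with HISAT2, and the submitters' processing notes name HTSeq, limma and mm10; tool versions and the strand setting were not given in the sources used here. Closing rows that name no gene held 69% (no feature), 10.8% (not aligned), 5.09% (low quality), 3.97% (several places) and 0.251% (ambiguous) of reads and were left out.

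The quasi-likelihood test of edgeR 4.0.16 (R 4.3.3) was fitted to the counts, after TMM scaling and the filterByExpr filter, over all 8986 rows that passed the filter, and p-values were adjusted over these. Values of the 4 genes are TMM-normalized CPM. Those of Smu1, the cell type genes and the rows outside the windows are CPM without TMM scaling. Differences within library sets were tested by exact permutation of mean log2 CPM (prior count 1, scipy 1.17.1). DESeq2 1.42.0, limma 3.58.1, another normalization, no filter, a replicate block, the library set and leaving out wild type vehicle replicates were the alternatives. Genotypes within sets, fits to the first set alone or to ATF4 KO libraries of the second set, and the set interaction were added after seeing the data.

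The members and lists were chosen with earlier results of these data known. Named genes were the members, the tested genes of 8 lists, except 1 gene that is not reported here, nearest neighbours and the 3 genes most correlated with each member. Same-numbered ATF4 KO libraries deviated together in 11 of 11 pairs (r 0.17 to 0.78), but r was over 0.1 in 2 of 8 pairs within the second set. Replicates 1 to 3 of both ATF4 KO groups form the first set, so pairing and set cannot be told apart over all pairs. In the other comparisons r was not over 0.1 in every pair. The tests reported treat libraries as unpaired, apart from the replicate block. No duplicate libraries were found among 242 pairs (lowest chi-square per degree of freedom 1.91). On simulated counts of the 8986 rows, 51% of changes of 0.5 and 88% of changes of 1 (log2) were recovered for borrelidin in wild type cells, and 20% and 67% for the difference of the responses. The simulated counts held no difference between the library sets, so these shares do not describe comparisons that mix borrelidin with the set.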

Additional observations from a re-analysis of the deposited data

Results flagged for a closer look

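The borrelidin response differed between wild type and ATF4 KO cells in the pooled interaction test for all 4 genes, as wild type minus ATF4 KO on the log2 scale: 0.40 for Dnaja1 (adjusted p = 0.038), -1.01 for Dnajb5 (adjusted p = 5.4e-08), 0.77 for Cct5 (adjusted p = 0.0075) and 0.58 for Bag1 (adjusted p = 0.031, edgeR). With the library set as a term Dnajb5 alone kept its call, at -0.88 (adjusted p = 1.8e-06), beside -0.02 for Dnaja1, 0.18 for Cct5 and 0.01 for Bag1. The term fits 1 set difference to all groups, whereas the sets of Dnajb5 were apart only in wild type cells with vehicle. It therefore does not remove the set difference from the value of Dnajb5. For Dnaja1 the set difference was also unequal, with a ratio of the second to the first set of 1.3 in ATF4 KO cells with borrelidin and 1.7 with vehicle. The values in the second set alone were 0.02 for Dnaja1, -0.53 for Dnajb5 (adjusted p = 0.017, edgeR), 0.09 for Cct5 and -0.04 for Bag1. No wild type library with borrelidin is in the first set, and 3 wild type libraries with vehicle are in the second.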

How the results depend on the processing

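DESeq2, limma voom and median ratio size factors left every member on the same side of 0.05 and in the same direction, whereas the library set changed most. With no filter Dnaja1 lost its calls in ATF4 KO cells (-0.32, adjusted p = 0.082) and for the difference (0.44, adjusted p = 0.081), and with the compared groups alone Bag1 lost its call under vehicle (0.39, adjusted p = 0.091, edgeR). With treatment in place of genotype in the ATF4 activity model, Bag1 was not called (0.17, adjusted p = 0.39, edgeR). That coefficient compares wild type with ATF4 KO cells under borrelidin. With the set as a term, the direction turned for Dnaja1 in wild type cells with borrelidin (-0.34), in the difference of the responses (-0.02), under vehicle (-0.02), under borrelidin (0.00) and in the ATF4 activity model (-0.34), for Bag1 in wild type cells (-0.04), under borrelidin (0.02) and in the ATF4 activity model (-0.04), and for Cct5 under vehicle (-0.27). In the second set alone, it turned for Dnaja1 in wild type cells (-0.41), under vehicle (-0.05) and for ATF4 activity (-0.41), for Bag1 in wild type cells (-0.11), in the difference (-0.04), under vehicle (-0.05) and for ATF4 activity (-0.10), and under vehicle for Dnajb5 (0.35) and Cct5 (-0.37). Leaving out 1 more of wild type vehicle replicates 9 to 11 gave, in wild type cells, -0.44 to -0.39 for Dnaja1 and -0.11 to -0.10 for Bag1, with the same ranges for ATF4 activity. It gave -0.01 for Dnaja1 (without replicate 10) and -0.05 to -0.04 for Bag1 in the difference, and under vehicle -0.07 to -0.03 for Dnaja1, 0.41, 0.37 and 0.29 for Dnajb5, -0.38 to -0.34 for Cct5 and -0.05 to -0.04 for Bag1. In the first set alone, Dnaja1 and Bag1 were at 0.02 and 0.03 for borrelidin in ATF4 KO cells, and Dnaja1 and Cct5 at -0.12 and -0.18 between genotypes under vehicle. The cause was not tested.

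Calls at 0.05 over all rows numbered 5337 for borrelidin in wild type cells, 2721 in ATF4 KO cells, 3022 for the difference, 3172 and 4474 between genotypes under vehicle and borrelidin, and 5163 for ATF4 activity. At 1e-10 they numbered 190, 44, 45, 236, 493 and 118 in that order. With the set as a term there were 2681 calls in wild type cells, 1829 for the difference and 2133 for ATF4 activity. In the second set alone there were 1639, 870 and 941, and 1849 under vehicle, and with a further vehicle replicate (9, 10 or 11) left out 1186, 1163 and 1080 in wild type cells, 603, 620 and 593 for the difference, 505, 527 and 449 for ATF4 activity, and 1329, 1387 and 1455 under vehicle. ATF4 KO cells gave 674 calls in the first set alone and 4199 in the second. The replicate block changed 1 member's call, Dnaja1 between genotypes under vehicle (0.27, adjusted p = 0.023, edgeR), where the numbers pair no libraries. Depth limits Dnajb5 most (56 to 251 counts per library), and in the second set the comparisons that use wild type vehicle rest on 3 such libraries.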
